A study of Mus musculus with 3 samples.

Results

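The regions described here are the YY1 peak intervals at the edges of the mouse assembly, in chromatin immunoprecipitation and sequencing (ChIP-seq) of cardiac progenitor cells. They comprise intervals on unplaced sequence (chrUn_random and the random sequences of chr1 to chr19) and intervals on chr1 to chr19 that start below 3.5 Mb in mm9. The first 3 Mb of each mm9 chromosome is an assembly gap at the centromere, so the second set covers the first 500 kb of assembled sequence and is called pericentromeric below. By position alone, 563 of the 118800 intervals in the 2 lists were members: 43 of 3691 in replicate 1 (28 unplaced and 15 pericentromeric) and 520 of 115109 in replicate 2 (230 unplaced and 290 pericentromeric). The remaining intervals of chr1 to chr19, the autosomal rest, numbered 3423 in replicate 1 and 108681 in replicate 2.

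C57BL/6 mouse embryonic stem cells with a GFP reporter driven by Nkx2.5 were differentiated as embryoid bodies to day 6, and the GFP-positive cells, which the labels call cardiac progenitor cells, were sorted. Both ChIP samples were prepared from such sorted cells with the same anti-YY1 antibody, 1 per sort, and an input from the same cells without antibody was not analysed here. No untreated or YY1-deficient sample was compared, and the cell identity rests on the reporter alone, since the files hold no expression. Each file lists peak intervals with a score from the peak caller MACS, which ranks intervals within a list; the reads behind an interval are unknown.

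YY1 is a zinc-finger protein that binds DNA through a short motif and can activate or repress transcription. Mouse chromosomes carry their centromere at one end, embedded in long arrays of satellite repeats that are packed as heterochromatin and are largely missing from the assembly. Unplaced sequences are assembled pieces whose position, or whose chromosome, was not known, and such pieces are often rich in repeats. Short reads from repeated sequence can match several places, so calls in such sequence depend on how an aligner treats those reads; no aligner is named in the sources used here.

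Unplaced sequence was dense in calls in one sample and sparse in the other. In replicate 1 it held 28 intervals over 9.01 Mb, or 3.11 per Mb, against 1.42 per Mb in the autosomal rest. That is 2.18 times the density (95% exact interval from counting error 1.45 to 3.16; exact binomial test, two-sided, adjusted p = 0.00072). In replicate 2 it held 230 intervals, or 25.5 per Mb against 45.2 per Mb, 0.565 times the density (0.494 to 0.643; adjusted p = 2.39e-20 in the same exact test). The intervals of the ratios therefore lay on opposite sides of 1. Both tests took single intervals as units and counted neighbouring ones separately. Their p-values and intervals therefore do not cover clustering or variation between sequences or samples. Single autosomes without their windows ranged from 1.15 to 1.60 per Mb in replicate 1 and from 40.5 to 48.7 per Mb in replicate 2, so unplaced sequence lay outside both ranges. Lengths include any gaps within these sequences.

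The difference between the 2 lists was also tested directly, with single intervals as units. Each sample gave 1 list and neighbouring intervals were counted separately, so these p-values do not measure variation between samples. Of the unplaced and autosomal-rest intervals of replicate 1, 0.811% (exact interval 0.540 to 1.17%) were unplaced, and of those of replicate 2, 0.211% (0.185 to 0.240%). This was an odds ratio of 3.87 (adjusted p = 7.14e-08, two-sided Fisher's exact test), from a test chosen after the values were seen. For pericentromeric intervals the shares were 0.436% (0.244 to 0.719%) and 0.266% (0.236 to 0.299%), and the odds ratio of 1.64 did not pass the test (adjusted p = 0.131, Fisher's exact test). With the window ended at 4.0 Mb it did (odds ratio 2.00, adjusted p = 0.000511, Fisher's exact test). The excess in replicate 1 lay among low scores: among the 50% of the list with the highest scores, 6 unplaced intervals were left and the density ratio was 0.929. The difference between the lists was not detected there either (6 of 1729 against 93 of 54577, odds ratio 2.04, Fisher's exact test, adjusted p = 0.202).

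**Figure D1:**
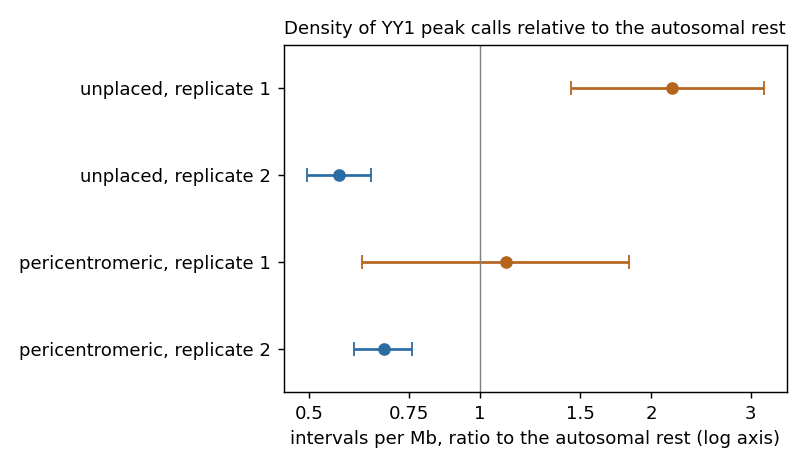
Ratio of intervals per Mb to the autosomal rest (log axis) for unplaced and pericentromeric sequence in each replicate, with 95% exact intervals from counting error as bars. Unplaced sequence was above 1 in replicate 1 (2.18) and below 1 in replicate 2 (0.565), and the pericentromeric interval of replicate 1 spanned 1.

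Most unplaced intervals of replicate 1 lay on chrUn_random, the sequence assigned to no chromosome. It held 23 of the 28 replicate 1 intervals, 4.34 per Mb over 5.30 Mb and 3.05 times the autosomal rest (1.93 to 4.58). The other 5 lay on the random sequences of chromosomes 7, 8 and 9. Over the 3.71 Mb of all random sequences other than chrUn_random, they made 1.35 per Mb, 0.947 times the rest (0.307 to 2.21). That length includes sequences with no replicate 1 interval. On chr7_random, chr8_random and chr9_random alone, with 1, 2 and 2 intervals, the densities were 8.22, 2.53 and 5.32 per Mb. Those sequences were picked because they held replicate 1 intervals, and they are short. Their densities therefore cannot be set against that of the rest. In replicate 2, chrUn_random held 117 intervals, 0.488 times the rest (0.404 to 0.585), and the other random sequences held 113, 0.674 times (0.556 to 0.811). Replicate 2 thus stood below the autosomal density of 45.2 per Mb on both kinds of sequence when pooled. Single sequences varied. Those with most intervals after chrUn_random had 47.2 (chr17_random), 38.0 (chr8_random), 31.9 (chr9_random), 30.8 (chr13_random) and 20.1 per Mb (chr1_random). The difference between the kinds was not tested in either sample.

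Along chrUn_random the samples also differed in where most of their intervals lay. Replicate 1 had 8 intervals in the first 3 Mb and 15 beyond it, whereas replicate 2 had 103 and 14. Between 2 and 3 Mb alone replicate 2 had 61 intervals and replicate 1 had 5, and between 4 and 5 Mb the counts were 7 and 9. Many of the 61 stood in a dense run from 2365025 to 2530461. Replicate 2 intervals followed each other closely there, for example at 2386177, 2388587, 2390995 and 2393420. The replicate 1 intervals at 2381179, 2427222, 2430192 and 2491784 lay in that run, 0 to 699 bp from a replicate 2 interval. The part of the close spacing of replicate 2 in these distances was not tested. The remaining one of the 5, at 2169582, was 26.9 kb from the nearest. A group of 5 replicate 1 intervals lay within 24.3 kb, from 4050616 to 4074909, and the nearest replicate 2 interval was 103 kb or more away from each of them. These stretches were chosen after the counts were seen, and no test was made.

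Most of the smaller random sequences were called in replicate 2 only. Of the 10 unplaced sequences with any interval, replicate 1 had intervals on 4 and replicate 2 on all 10. Those called in replicate 2 alone spanned 0.00153 to 1.19 Mb each, and the autosomal rest of replicate 1 had 1.42 per Mb. The part of list size (3691 intervals against 115109) in these absences was not tested. Replicate 2 had 30 intervals on chr8_random, 25 on chr17_random, 24 on chr1_random, 12 on chr9_random and 11 on chr13_random, and 5 or fewer on each of the others. On chr8_random replicate 1 had 2 intervals, 195 and 437 bp wide, which lay 7918 and 4678 bp from the nearest replicate 2 interval. The single replicate 1 interval on chr7_random, from 48331 to 48434, was 71.0 kb from the nearest.

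The random sequences of chromosomes X and Y were not members and are given for comparison. That of chromosome X held 3 intervals in replicate 1, or 1.80 per Mb, and 28 in replicate 2, or 16.8 per Mb. That of chromosome Y held 32 intervals in replicate 1, or 0.546 per Mb, and 1396 in replicate 2, or 23.8 per Mb. Unplaced sequence had 5.69 times the density of chrY_random in replicate 1 (95% exact interval 3.30 to 9.76) and 1.07 times in replicate 2 (0.929 to 1.23). Unplaced sequence and chrY_random thus differed in density beyond counting error in replicate 1, and no such difference was detected in replicate 2.

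Pericentromeric windows had fewer replicate 2 calls than the chromosomes they belong to. Replicate 2 held 290 intervals in the 19 windows, 30.5 per Mb against 45.2 per Mb in the rest, a ratio of 0.675 (95% exact interval 0.600 to 0.758). The window was the sparser part on 15 of 19 chromosomes (exact sign test over chromosomes, two-sided, adjusted p = 0.0448). The call was lost in that exact sign test on leaving out chromosome 9 (adjusted p = 0.0721), on limiting the rest to 3.5 to 10 Mb (adjusted p = 0.131) and on keeping the 50% of the list with the highest scores (adjusted p = 0.503).

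In replicate 2 the windows ranged from 2 per Mb on chromosome 16, which had 1 interval, to 58 per Mb on chromosome 10, which had 29. Chromosomes 5 and 7 had 26 intervals each and chromosome 8 had 25, and these 3 and chromosome 10 were the 4 whose window was denser than the rest of the chromosome. Chromosomes 19 and 3 had 7 and 8.

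In replicate 1 the pericentromeric windows held 15 intervals, 1.58 per Mb against 1.42 per Mb (ratio 1.11, 95% exact interval 0.620 to 1.83). Chromosomes 2, 6, 12 and 18 had 2 each, chromosomes 1, 7, 9, 11, 13, 14 and 16 had 1 each, and 8 chromosomes had none. No difference was detected in the exact sign test over chromosomes (denser window on 11 of 19, adjusted p = 0.756). With so few calls that test says little, because a single interval in a window already exceeds the density of the rest of each chromosome.

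**Figure D2:**
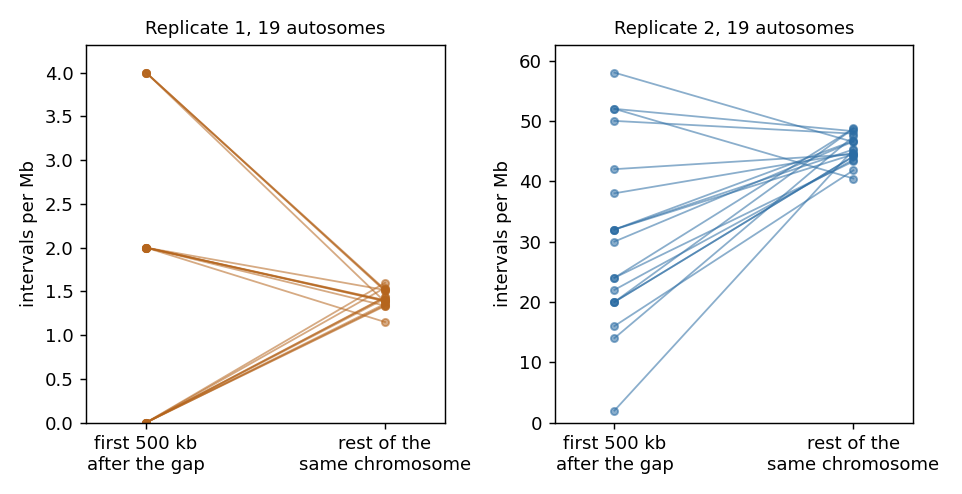
Intervals per Mb in the first 500 kb after the assembly gap and in the rest of the same chromosome; each line is 1 of 19 autosomes, and both vertical axes start at 0 with different scales. In replicate 2 the window was sparser on 15 of 19 chromosomes, and in replicate 1 the windows held 0, 1 or 2 intervals.

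The low density of replicate 2 was deepest next to the gap. In 100 kb bins summed over the 19 chromosomes, the first 2 bins held 32 and 36 intervals (16.8 and 18.9 per Mb), and the next 3 held 67, 94 and 61 (35.3, 49.5 and 32.1 per Mb). With the window ended at 3.2 Mb the density ratio was 0.396, and the adjusted p of the exact sign test was 0.00204. Beyond the edge the density was 34.9 per Mb from 500 to 1000 kb after the gap, 41.9 in the following 500 kb and 38.6 in the one after that, so all 4 stretches lay below the 45.2 per Mb of the autosomal rest. In replicate 1, 9 of the 15 members lay in the first 200 kb, and the density was 2.53 per Mb from 500 to 1000 kb.

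**Figure D3:**
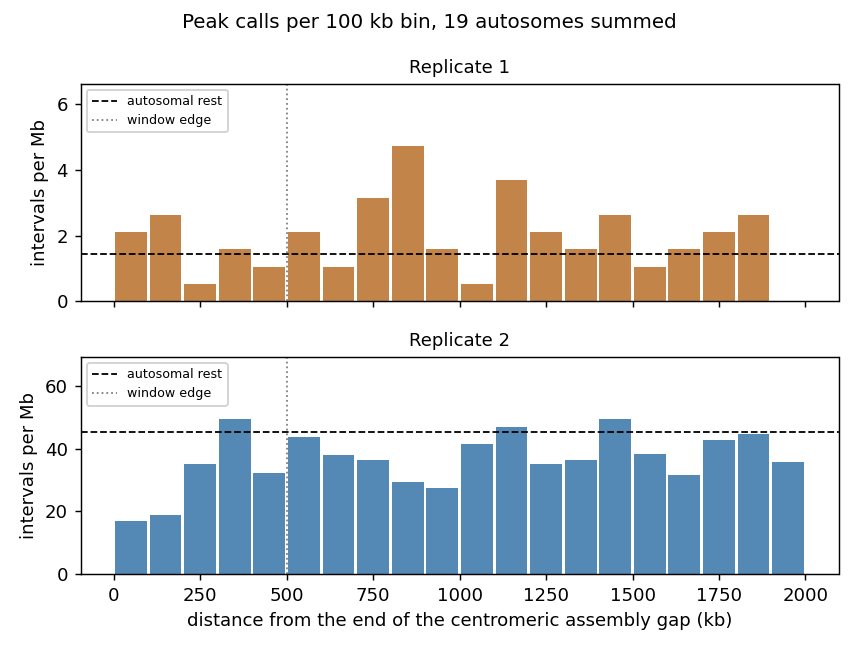
Intervals per Mb in 100 kb bins from the end of the assembly gap, 19 autosomes summed, with the autosomal rest as a dashed line and the window edge as a dotted line. In replicate 2 the 2 bins nearest the gap (16.8 and 18.9 per Mb) were the lowest of the 20 shown.

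The edge at 3.5 Mb is a choice of position, and the nearest intervals on either side of it were these. The last replicate 1 members inside 3.5 Mb were on chromosome 14 at 3435437 (score 74.29) and chromosome 2 at 3403459 (90.07), and the first intervals outside were on chromosome 3 at 3519637 (96.38) and chromosome 2 at 3529585 (79.02). In replicate 2 the nearest inside were on chromosome 13 at 3499733 (148.76) and chromosome 18 at 3499478 (51.26), and the nearest outside on chromosome 10 at 3500854 (127.13) and chromosome 19 at 3502368 (74.39).

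Replicate 1 members were seldom called again in replicate 2. A shared interval is one with at least 1 bp in common with the other list, as 40.6% of all replicate 1 intervals had. Of the 28 unplaced ones 2 did (7.14%, 95% exact interval 0.877 to 23.5%). Against the autosomal rest, where 1456 of 3423 did (42.5%, 40.9 to 44.2%), this is an odds ratio of 0.104 (adjusted p = 0.000288, two-sided Fisher's exact test). Of the 15 pericentromeric ones 3 did (20%, 4.33 to 48.1%), and this odds ratio of 0.338 did not pass the test (Fisher's exact test, adjusted p = 0.178). It did with the window ended at 4.0 Mb (9 of 39, odds ratio 0.403, Fisher's exact test, adjusted p = 0.0331) and with intervals closer than 10 kb merged (2 of 14, odds ratio 0.182, adjusted p = 0.0327). The call for unplaced intervals rests on chrUn_random, with 1 shared of 23: without it 1 of 5 was shared and the adjusted p was 0.563 in the same exact test. It was also lost among the 50% of each list with the highest scores, where 1 of 6 was shared (Fisher's exact test, adjusted p = 0.309).

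**Figure D4:**
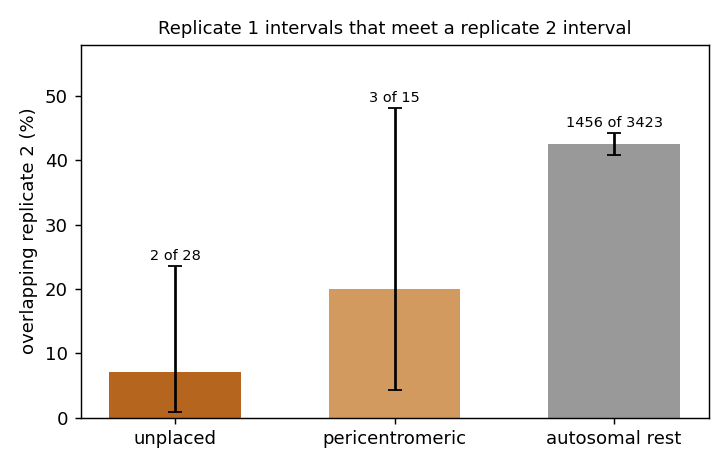
Percentage of replicate 1 intervals with at least 1 bp in common with replicate 2, with 95% exact binomial intervals as bars. Unplaced intervals, at 7.14%, lay below the autosomal rest, at 42.5%, and the interval of the 15 pericentromeric ones reached up to 48.1%.

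Distances to the other list are given as a description. The median distance to the nearest replicate 2 interval was 53.6 kb for unplaced and 25.3 kb for pericentromeric members, and 2.35 kb in the autosomal rest. A replicate 2 interval lay within 10 kb of 9 of 28 unplaced members (32.1%), 5 of 15 pericentromeric members (33.3%) and 2395 of 3423 of the rest. The density of replicate 2 is lower on both kinds of sequence, as given above, and its part in these distances was not tested.

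Seen from replicate 2, few intervals could be shared because replicate 1 was short. Of all replicate 2 intervals 1.26% met a replicate 1 interval. Among members this held for 2 of 230 unplaced (0.870%, exact interval 0.105 to 3.11%) and 3 of 290 pericentromeric ones (1.03%, 0.214 to 2.99%), against 1408 of 108681 in the autosomal rest. No difference from the rest was detected in Fisher's exact test (adjusted p = 1 for both, odds ratios 0.668 and 0.796).

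The places called in both samples were 5 pairs of intervals. On chromosome 12 the replicate 1 interval from 3321050 to 3321161 (112 bp) lay wholly within a replicate 2 interval from 3320817 to 3321568 (752 bp). Its score was among the lowest of replicate 1 (57.26, rank 3338 of 3691), whereas the partner scored 1940.38 and ranked 239 of 115109. A second pair on chromosome 12, 7.06 kb further on, was formed by 3328220 to 3328303 (score 61.52) and 3328240 to 3328330 (169.41), with 64 bp in common. On chromosome 14, the replicate 1 interval from 3435437 to 3435519 (74.29) lay within the replicate 2 interval from 3435317 to 3435528 (634.32, 212 bp wide).

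The 2 unplaced pairs differed in strength. On chr9_random, the replicate 1 interval from 328684 to 328731 (48 bp, score 89.08) lay within the replicate 2 interval from 328672 to 328772, whose score of 458.93 was the third highest of the 230 unplaced members. On chrUn_random, 2427222 to 2427327 in replicate 1 (score 54.41) and 2427209 to 2427278 in replicate 2 (50.69) had 57 bp in common. Both were near the bottom of their lists, at ranks 3501 of 3691 and 114925.5 of 115109, where tied scores share a rank. Of the 5 pairs, all 3 pericentromeric ones lay more than 300 kb beyond the gap. Among all pericentromeric members, 5 of 15 in replicate 1 and 155 of 290 in replicate 2 lay 300 to 500 kb beyond it.

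Median member widths were near that of the rest in replicate 2 and above it in replicate 1, as a description with no test. The middle 50% of the replicate 1 rest ran from 60 to 100 bp. In replicate 1 the median was 97 bp for unplaced members (range 42 to 437 bp) and 105 bp for pericentromeric ones (57 to 6177 bp), against 83 bp in the rest. In replicate 2 the medians were 59 and 57 bp against 61 bp, and the widest members had 371 and 789 bp. Intervals of 200 bp or more made up 2.63% of replicate 1 and 2.85% of replicate 2.

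Wide intervals were more frequent among the pericentromeric members of replicate 1, by a small count. They were 3 of 15 (20%, exact interval 4.33 to 48.1%), against 2.60% of the rest (odds ratio 9.37, Fisher's exact test, adjusted p = 0.0187). The 3 were on chromosome 9 from 3000004 to 3006180 (6177 bp), chromosome 6 from 3150765 to 3151273 (509 bp) and chromosome 11 from 3051814 to 3052115 (302 bp). Without chromosome 9 the call was lost (2 of 14, odds ratio 6.08, Fisher's exact test, adjusted p = 0.125), as it was when intervals closer than 500 bp were merged (adjusted p = 0.0953) or the window was ended at 4.0 Mb (adjusted p = 0.149). With merging within 10 kb it passed (4 of 14, odds ratio 5.65, Fisher's exact test, adjusted p = 0.0324).

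The interval on chromosome 9 stood apart from the other members. It began 3 bp after the assembly gap, held 75.6% of the 8174 bp covered by the pericentromeric members of replicate 1, and had the highest score among all 43 members (149.43, rank 183 of 3691). The nearest replicate 2 interval lay 195.9 kb away. It was the first of that list on the chromosome, 202 kb from the gap, and on 16 of the other 18 autosomes the first one lay nearer. Which repeats or genes lie there was not analysed here.

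For the other sets the share of wide intervals did not pass the test at 200 bp, and the call depended on the width and on merging. Among unplaced members of replicate 1 only the 437 bp interval on chr8_random (682950 to 683386) was wide (1 of 28, adjusted p = 0.667 in Fisher's exact test). In replicate 2, 13 of 290 pericentromeric members were wide (4.48%, exact interval 2.41 to 7.54%, against 2.98% of the rest, adjusted p = 0.226 in Fisher's exact test) and 2 of 230 unplaced ones (0.870%, 0.105 to 3.11%, adjusted p = 0.132). Counting from 500 bp, 4 of the 290 were wide and the call changed (odds ratio 4.81, Fisher's exact test, adjusted p = 0.0253). Counting from 150 bp, the unplaced members of replicate 2 were wide less often than the rest (odds ratio 0.306, Fisher's exact test, adjusted p = 0.0193). They were also wide less often with intervals merged within 500 bp (odds ratio 0.426, adjusted p = 0.0384) or 10 kb (odds ratio 0.510, adjusted p = 0.00107), by the same exact test. For unplaced members of replicate 1, merging within 10 kb gave 5 of 22 and an odds ratio of 4.15 (Fisher's exact test, adjusted p = 0.0314).

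Members with very high scores were found in the pericentromeric windows of replicate 2. The highest was on chromosome 8 from 3290319 to 3290919 (601 bp), with a score of 3100 that it shared with others at rank 57.5. It was followed by chromosome 17 from 3444243 to 3445031 (2662.93, 789 bp), chromosome 5 from 3479821 to 3480413 (2191.94, 593 bp), the shared interval on chromosome 12 named above, and chromosome 7 from 3388322 to 3388470 (1809, 149 bp). The 4 unshared ones had no replicate 1 interval within 182 kb. For replicate 2 the median distance to replicate 1 was 268 kb over all pericentromeric members and 249 kb in the rest. All 5 lay more than 290 kb beyond the gap, and 155 of the 290 members lay 300 to 500 kb beyond it. The fifth widest member of that list, also on chromosome 12, was 491 bp wide (3357138 to 3357628, score 362.62).

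Unplaced members had no such scores. In replicate 2 their highest score was 560.24, on chrUn_random from 627614 to 627984 (371 bp), and their median was 118.91, against 129.01 in the rest. Of the 230, 74 (32.2%) lay below the lower quartile of the rest and 39 (17.0%) above the upper quartile. In replicate 1 the median was 65.6 against 77.5 in the rest, 15 of 28 (53.6%) were below the lower quartile (68.27), and 1 was above the upper (96.38): the interval on chrUn_random from 3632304 to 3632470, at 100.21. Unplaced members thus leaned to the lower scores in both lists, as a description with no test.

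Pericentromeric scores are also given as a description with no test. The replicate 2 median was 139.61 against 129.01 in the rest, and 74 of 290 (25.5%) and 77 (26.6%) lay outside the quartiles of the rest. In replicate 1 the median was 71.86 against 77.5 in the rest, 9 of 15 lay below the median of the list and 6 below the lower quartile of the rest, and the interval on chromosome 9 alone lay above the upper. After it, the highest were on chromosome 2 from 3355745 to 3355855 (93.84), chromosome 6 from 3150765 to 3151273 (92.42) and chromosome 2 from 3403459 to 3403550 (90.07).

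**Figure D5:**
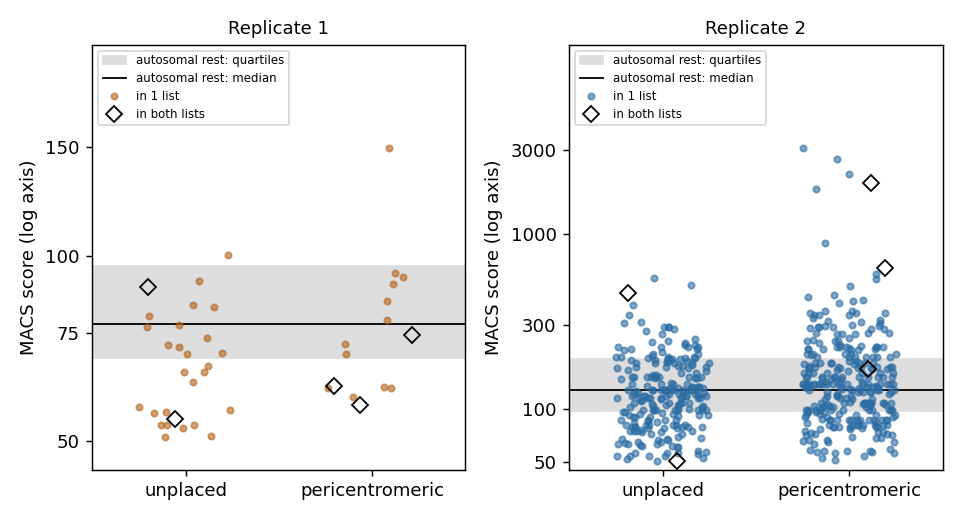
MACS score (log axis) of each member in replicate 1 and replicate 2, with members found in both lists as open diamonds; the grey band and line are the quartiles and the median of the autosomal rest. Scores of the 2 panels are not comparable; unplaced members of replicate 1 sit mostly in or below the band, and 5 pericentromeric members of replicate 2 sit above 1800.

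Close neighbours were counted as a description, with no test. Another replicate 1 interval lay within 10 kb of 11 of the 28 (39.3%), of 2 of the 15 pericentromeric ones (13.3%) and of 13.0% of the rest. When intervals closer than 10 kb were merged, 22 unplaced intervals were left and the density ratio was 1.87 (adjusted p = 0.0214, exact binomial test). In replicate 2 the shares with such a neighbour were 58.7%, 63.8% and 67.0%.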

How the data were processed

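In all, 2 lists of YY1 ChIP-seq peaks, 1 per sorted sample, were analysed; the input was not analysed here. Per the file headers the peaks were called by the authors with MACS in Galaxy, on mm9 (submitters' processing notes). No source used here gives the MACS settings or version, or an aligner. The deposited score is the one MACS gave, and it was used only within a list. Read totals are unknown, so the intervals of ratios and shares cover counting error only.

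Members were chosen by position, and with earlier results of these data known. Starts were taken as 0-based, as in BED files, and are printed 1-based. Windows were 3.0 to 3.5 Mb; other lengths ran from the first to the last interval of either list, without removal of sequence gaps. Peaks of 1 list are not replicates, so p-values compare positions within these lists. Benjamini-Hochberg adjustment covered 14 tests, 2 of them added later. Those 2 compared the lists with each other, with single intervals as units, and do not measure variation between samples. Named regions were those in both lists, the 5 highest scores and 5 greatest widths of each list, and those nearest the 3.5 Mb edge; others were named after their values were seen. No mm9 sequence or annotation was used. The computations were tested on simulated lists. Tools were SciPy 1.17.1, pandas 2.3.3, NumPy 2.4.6, matplotlib 3.10.9 and Python 3.11.15.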

Additional observations from a re-analysis of the deposited data

How the results depend on the processing

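Of 82 recomputed values, 58 changed neither direction nor call at an adjusted p of 0.05, and the lower density of replicate 2 on unplaced sequence did so under all 5 of its alternatives (ratio 0.456 to 0.581). The cause of the other changes was not tested. Some alternatives left fewer intervals by construction. Among the 50% of each list with the highest scores, the density ratios of replicate 1 fell to 0.929 (unplaced) and 0.881 (pericentromeric), that of pericentromeric replicate 2 was 0.748, and the odds ratios were 0.218 for unplaced overlap in replicate 1 and 2.04 for the unplaced share of the lists, both no longer past the threshold. With the rest limited to 3.5 to 10 Mb the pericentromeric density ratios were 0.980 and 0.767. With the window ended at 4.0 Mb the odds ratios were 3.10 for wide intervals and 0.403 for overlap in replicate 1, 1.12 for overlap in replicate 2 and 2.00 for the pericentromeric share of the lists, which gained the call as that overlap in replicate 1 did. Without chromosome 9 the odds ratio for wide intervals in replicate 1 was 6.08 and the density ratio of replicate 2 was 0.686. Without chrUn_random the odds ratio for overlap in replicate 1 was 0.338. Merging within 500 bp gave odds ratios for wide intervals of 4.56 (pericentromeric, replicate 1) and 0.426 (unplaced, replicate 2). Merging within 10 kb, which turns clusters into wide intervals, gave 4.15 (unplaced, replicate 1), 0.938 (pericentromeric, replicate 2) and 0.510 (unplaced, replicate 2), and 0.182 for pericentromeric overlap in replicate 1. Wide from 500 bp, the odds ratios were 0 (unplaced, replicate 1) and 4.81 (pericentromeric, replicate 2), and from 150 bp 0.306 (unplaced, replicate 2). With midpoints within 500 bp, overlap of pericentromeric replicate 2 members gave 1.16. Merging within 10 kb, leaving out chromosome 9 and the alternatives for the shares of the lists were chosen after seeing the data. Values are given per replicate, and those that compare the lists cannot be had without a replicate. No paired analysis was possible because the 2 ChIP samples form a single group. Without read depth, a place called in 1 list alone cannot be called unbound in the other.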
